A study of Mus musculus with 48 samples.

Results

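Transcripts of 6 receptor genes by which macrophages bind and take up material were followed in myeloid cells sorted from colon tumours of mice. They are Mrc1, Msr1, Clec10a, Cd163, Stab1 and Folr2, taken by name from a count table with 24537 gene rows. Rows were found for 5 of the 6, and Clec10a, which encodes a galactose-type lectin, is not analysed here. All mice had received AOM DSS, a carcinogen (azoxymethane) with an agent that inflames the colon (dextran sulfate sodium), and all samples carry the label d85 for day 85. Sorting had split the cells 4 ways, by the monocyte surface protein Ly6C and by MHC class II, which displays antigen to T cells. The genotype labels are ctrl and ko, where ko stands for loss of the chemokine gene Ccl17 and the alleles behind ctrl are not described. In the samples used, ctrl and ko numbered 3 and 4 for Ly6Chi MHCIIhi, 4 and 4 for Ly6Chi MHCIIlo, 4 and 4 for Ly6Clo MHCIIlo, and 8 and 8 for Ly6Clo MHCIIhi. The series describes ko mice housed with controls and ko mice kept apart, but no sample is labelled by housing. Nothing in the labels says that replicates came from separate animals, so p-values measure only the spread between these samples, which may be technical.

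Scavenger receptors are cell-surface proteins that bind modified lipoproteins, glycoproteins, microbial surfaces and debris and carry them into the cell. Mrc1 encodes the mannose receptor CD206, which takes up glycoproteins ending in mannose or fucose as well as collagen fragments, and it is widely used to mark alternatively activated and tissue-resident macrophages. Msr1 encodes the class A scavenger receptor CD204, a receptor for modified low-density lipoprotein and bacterial cell wall lipids. Stab1 encodes stabilin-1, which binds oxidised lipoprotein, the matrix protein SPARC and dying cells, and which is also made by sinusoidal and lymphatic endothelium. Cd163 encodes the receptor for haemoglobin bound to haptoglobin, and Folr2 encodes folate receptor beta, found on resident macrophages. In the gut, monocytes from the blood lose Ly6C and gain MHC class II as they turn into macrophages.

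In GENCODE release M21 (GRCm38) Mrc1 spans chr2:14229392-14332057 on the plus strand, and the microRNA gene Mir511 lies inside it on the same strand. Msr1 spans chr8:39581685-39642673 on the minus strand and overlaps no other annotated gene. Stab1 spans chr14:31139013-31168641 on the minus strand, and its 3′ end shares 112 bases with the 3′ end of Nt5dc2 on the opposite strand. The sources used here do not say whether the counting used strand, so reads from those shared bases cannot be told apart. Nt5dc2 had 338 counts and Stab1 3447 over all 48 libraries. Cd163 spans chr6:124304656-124330527 on the plus strand, and Folr2 spans chr7:101839988-101857194 on the minus strand, where an antisense gene and a processed pseudogene overlap it. All 5 genes are annotated as protein coding, and the table gives 1 count per gene without saying which exon or UTR a read fell in.

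The stretches before the start sites of Mrc1 and Stab1 are shown because these 2 genes had the largest differences by Ly6C among the members tested by edgeR. Msr1 and Clec10a have no entry in the promoter table, and Folr2, with few counts, is not shown. The stretches were taken from the RefSeq promoter table (GRCm38.p6), run 5′ to 3′ on the gene's own strand and stop before the first annotated exon. Capitals mark GAGGAA, the core of sites for PU.1, a transcription factor of myeloid cells, or its reverse complement TTCCTC.
Mrc1, chr2:14229164-14229391, plus strand: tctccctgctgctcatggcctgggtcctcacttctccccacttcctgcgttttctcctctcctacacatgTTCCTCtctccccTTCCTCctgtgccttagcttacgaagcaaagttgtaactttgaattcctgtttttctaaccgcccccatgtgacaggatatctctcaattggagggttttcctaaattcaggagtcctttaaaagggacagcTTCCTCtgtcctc
Stab1, chr14:31168642-31168891, minus strand: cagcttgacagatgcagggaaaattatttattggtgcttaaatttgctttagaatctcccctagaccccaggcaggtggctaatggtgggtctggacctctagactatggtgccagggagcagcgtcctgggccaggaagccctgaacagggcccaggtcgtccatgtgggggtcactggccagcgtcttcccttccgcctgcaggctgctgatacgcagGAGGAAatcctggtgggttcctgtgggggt

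The Mrc1 stretch holds the core 3 times, each time on the minus strand, and the Stab1 stretch holds it 1 time, on its own strand. Among 32851 promoter windows of 250 bases in the table, 23.3% hold GAGGAA on either strand. The whole windows of 250 bases were searched on both strands for this core and for 3 other motifs. These were TGANTCA (the AP-1 motif, in 6.75% of windows), TTGCNNAA (the C/EBP motif, in 9.56%) and TATAAA (the TATA box, in 12.4%). None of the 3 other motifs was found in Mrc1 or Stab1. The motifs searched do not overlap each other in these stretches. The AP-1 motif was found in 1 of 2 windows of Folr2, and no motif searched was found in the Cd163 window, in which an exon of the gene Gm25311 is annotated. Such matches describe the letters of the windows and are not evidence of binding.

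The 39 samples used held 34362 to 891461 counts. The gates could be followed in the transcripts: Ly6c2, which encodes Ly6C2, stood at 1226 ± 285 CPM (counts scaled to a common library size, SD, n = 8) in Ly6Chi MHCIIlo and 26.3 ± 19.4 (n = 16) in Ly6Clo MHCIIhi. Cd74, the invariant chain of MHC class II, stood at 9660 ± 3867 CPM (n = 7) and 13864 ± 1530 (n = 16) in the 2 MHCIIhi populations and at 1858 ± 488 and 2471 ± 499 (n = 8 each) in the 2 MHCIIlo populations. Ccl17, the deleted gene, ran from 0 to 764 CPM with a median of 55.5 in Ly6Clo MHCIIhi ctrl (n = 8) and from 0 to 7.47 in ko (n = 8). In the other populations it stayed at or under 26.5 CPM with either label, and ctrl and ko overlapped. The sample Ly6Chi MHCIIhi ctrl 1 stood apart, with 23.1% of its 78264 counts from red cell markers, and it held 13.3 CPM of Mrc1, 39.8 of Msr1 and 66.3 of Stab1.

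Mrc1, the mannose receptor, differed along both axes of the sort. It was highest in Ly6Clo MHCIIhi cells and lowest in Ly6Chi MHCIIlo cells, and the populations that shared only 1 feature with the highest lay between. In Ly6Clo MHCIIhi the 16 samples ran from 39.9 to 231 CPM with a median of 171, and the mean was 162 ± 53.8. In Ly6Clo MHCIIlo the 8 samples ran from 34.8 to 136 CPM with a median of 89.4 (mean 85.9 ± 27.8). In Ly6Chi MHCIIhi the 7 samples ran from 13.3 to 99.7 CPM with a median of 69.5 (mean 67.4 ± 28.6). The ranges of these 2 intermediate populations overlapped. In Ly6Chi MHCIIlo the 8 samples ran from 11.8 to 35.8 CPM with a median of 22.0 (mean 23.5 ± 7.63), and every Ly6Clo MHCIIhi sample lay above all of them. In bulk samples such as these, fewer cells of a type and less of the transcript per cell cannot be told apart.

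Among Ly6Chi cells Mrc1 was 3.08-fold higher in MHCIIhi than in MHCIIlo (log2 fold change 1.62, SE 0.28, adjusted p = 0.002717 by edgeR's quasi-likelihood test). It was the 1 member of 3 tested that passed there, where 1.32% of 4756 genes were called higher and 1.53% lower. Mrc1 was under the count filter within Ly6Chi MHCIIlo, so it entered the comparisons with that population only through the other population, where it was higher. Among Ly6Clo cells it was 1.80-fold higher in MHCIIhi than in MHCIIlo (log2 0.84, SE 0.19, adjusted p = 0.00116), in a comparison that called 11.9% of 4817 genes higher and 13.6% lower. Lower Ly6C went with more Mrc1 at either level of MHC class II. Between the MHCIIhi populations the Ly6Clo cells had 2.25-fold more (log2 1.17, SE 0.22, adjusted p = 0.0002994), and between the MHCIIlo populations 4.07-fold more (log2 2.03, SE 0.25, adjusted p = 6.908e-07). The ends of the order, Ly6Clo MHCIIhi and Ly6Chi MHCIIlo, differed 7.11-fold (log2 2.83, SE 0.21, adjusted p = 4.615e-12). Ly6Clo MHCIIlo and Ly6Chi MHCIIhi did not differ beyond their spread (log2 0.34, 95% interval -0.17 to 0.85, adjusted p = 0.3628).

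**Figure D1:**
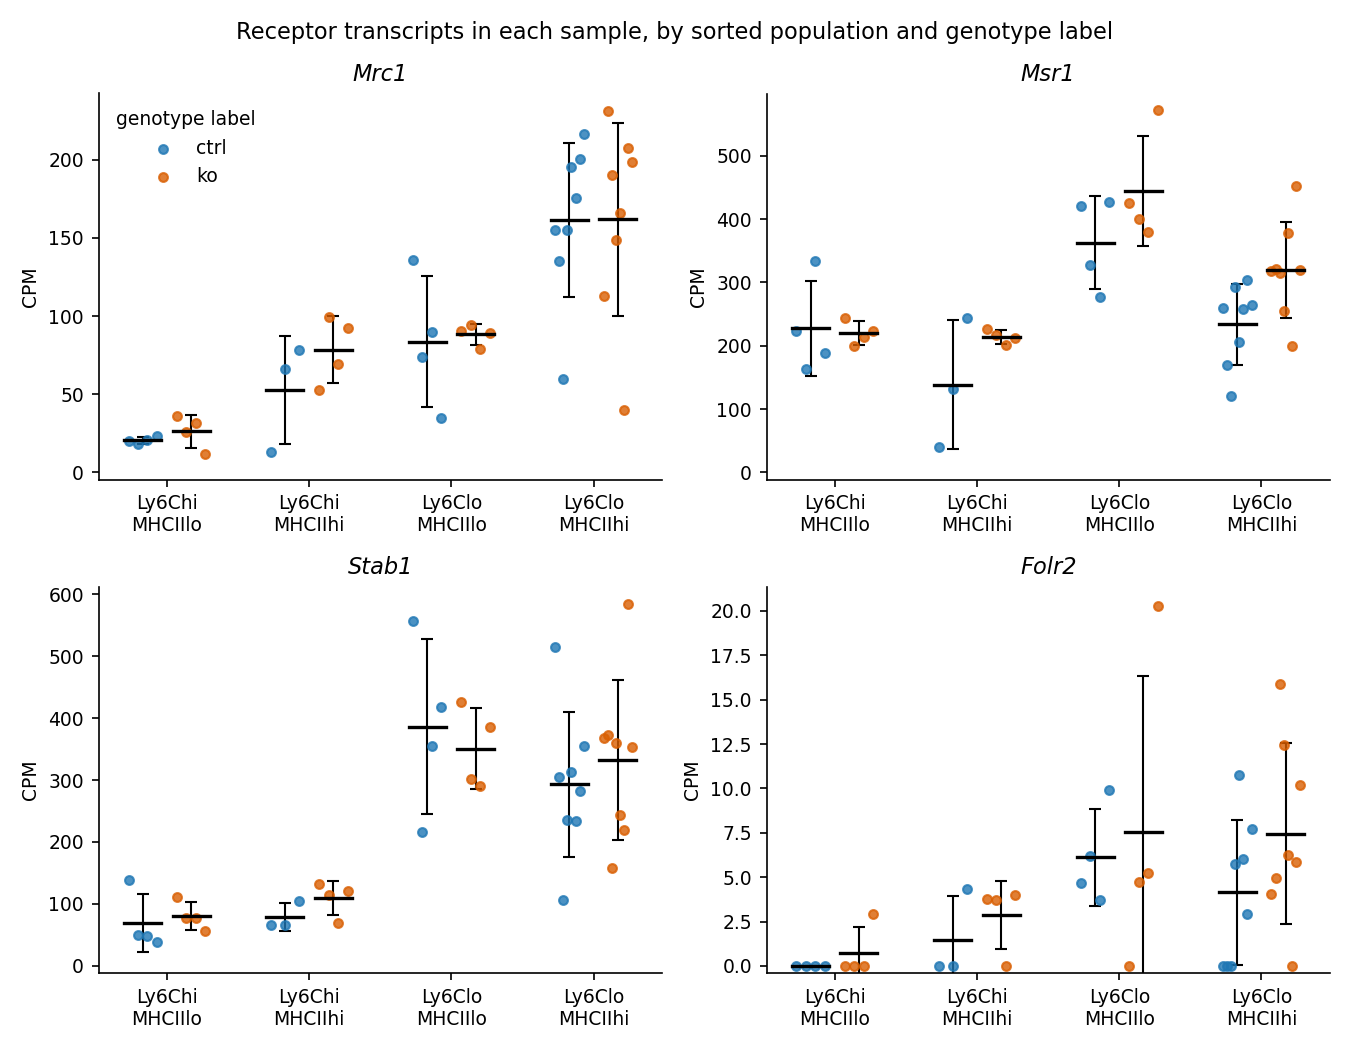
Levels in CPM of Mrc1, Msr1, Stab1 and Folr2 in each of 39 samples, by sorted population (x axis) and genotype label (colour), with the mean (thick line) and SD (bars, cut where they pass below the axis) of each group. Mrc1 rises from left to right, Msr1 peaks in Ly6Clo MHCIIlo, Stab1 is high in both Ly6Clo populations, and Folr2 stays under 20.3 CPM.

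Msr1, the class A scavenger receptor, had another order: it was highest in the Ly6Clo cells with little MHC class II. In Ly6Clo MHCIIlo the 8 samples ran from 277 to 572 CPM with a median of 411 (mean 404 ± 86.4). In Ly6Clo MHCIIhi the 16 samples ran from 120 to 452 CPM with a median of 279 (mean 277 ± 80.6). In Ly6Chi MHCIIlo the 8 samples ran from 164 to 334 CPM with a median of 219 (mean 224 ± 50.9). In Ly6Chi MHCIIhi the 7 samples ran from 39.8 to 244 CPM with a median of 212 (mean 182 ± 71.9), and all of them lay under the lowest Ly6Clo MHCIIlo sample. The Ly6Clo MHCIIlo and Ly6Clo MHCIIhi ranges overlapped, with 8 of 16 MHCIIhi samples under the lowest MHCIIlo sample.

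Msr1 was lower in Ly6Clo MHCIIhi than in Ly6Clo MHCIIlo, by 1.57-fold (log2 -0.65, SE 0.12, adjusted p = 0.0002019), which is opposite in sign to Mrc1 in the same samples. Ly6Clo MHCIIlo exceeded Ly6Chi MHCIIlo 2.00-fold (log2 1.00, SE 0.15, adjusted p = 1.103e-05) and Ly6Chi MHCIIhi 2.23-fold (log2 1.16, SE 0.18, adjusted p = 0.0001297). Those 2 comparisons called 19.3% of 4336 and 11.6% of 4175 genes higher, and 18.2% and 11.8% lower. The other 3 populations were closer together. Ly6Clo MHCIIhi exceeded Ly6Chi MHCIIhi 1.44-fold (log2 0.53, SE 0.17, adjusted p = 0.0278, where 8.3% of 5541 genes were called higher and 7.45% lower). That call was lost without any 1 of 6 samples, namely Ly6Chi MHCIIhi ctrl 1 (adjusted p = 0.05233), ko 1 (0.06359), ko 2 (0.05953), ko 3 (0.05777) and ko 4 (0.07197), and Ly6Clo MHCIIhi ko 7 (0.05146). Against Ly6Chi MHCIIlo, Ly6Clo MHCIIhi did not pass (log2 0.30, 95% interval 0.02 to 0.58, adjusted p = 0.09276), but it passed without Ly6Chi MHCIIlo ctrl 3 (log2 0.43, adjusted p = 0.01009). The 2 Ly6Chi populations did not differ beyond their spread (log2 -0.15, 95% interval -0.54 to 0.24, adjusted p = 0.7934).

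Stab1, stabilin-1, separated the populations by Ly6C. In Ly6Clo MHCIIlo the 8 samples ran from 216 to 557 CPM with a median of 370 (mean 368 ± 104). In Ly6Clo MHCIIhi the 16 samples ran from 107 to 583 CPM with a median of 308 (mean 313 ± 121). In Ly6Chi MHCIIhi the 7 samples ran from 66.2 to 132 CPM with a median of 104 (mean 96.2 ± 28.2). In Ly6Chi MHCIIlo the 8 samples ran from 39.3 to 139 CPM with a median of 66.5 (mean 74.8 ± 34.7). Every Ly6Clo MHCIIlo sample lay above every Ly6Chi sample used, and 15 of 16 Ly6Clo MHCIIhi samples did so as well. The library left out for its low total, Ly6Chi MHCIIhi ctrl 2, went against this, at 595 CPM of its total. That value rests on 5 counts among 8409 (exact binomial 95% interval 193 to 1387, counting error only).

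At high MHC class II the Ly6Clo cells held 3.01-fold more Stab1 than the Ly6Chi cells (log2 1.59, SE 0.24, adjusted p = 2.868e-05), and at low MHC class II 5.45-fold more (log2 2.45, SE 0.22, adjusted p = 3.958e-09). Across the diagonals of the sort the differences were 4.17-fold for Ly6Clo MHCIIhi over Ly6Chi MHCIIlo (log2 2.06, SE 0.24, adjusted p = 4.175e-08) and 3.67-fold for Ly6Clo MHCIIlo over Ly6Chi MHCIIhi (log2 1.88, SE 0.19, adjusted p = 1.051e-06). Between levels of MHC class II the test was not passed. The difference between MHCIIhi and MHCIIlo was 0.49 in log2 among Ly6Chi cells (95% interval -0.01 to 0.99, adjusted p = 0.3604) and -0.34 among Ly6Clo cells (95% interval -0.72 to 0.03, adjusted p = 0.1861).

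Counted together, 3 of 3 tested members were called higher in Ly6Clo than in Ly6Chi cells at either level of MHC class II, where 8.3% (high) and 19.3% (low) of all genes were. Their median log2 fold change was 1.17 at high and 2.03 at low MHC class II, where the medians over all genes tested were 0.02 and 0.05. In comparisons with Ly6Chi MHCIIlo, Mrc1 passed the count filter only through the other population. Along MHC class II the members did not move as a group, with 1 of 3 higher in MHCIIhi among Ly6Chi cells (1.32% of all genes) and 1 higher and 1 lower of 3 among Ly6Clo cells (11.9% and 13.6%). With ctrl samples alone, which leaves 3 in Ly6Chi MHCIIhi, no member passed against Ly6Clo MHCIIhi, with log2 differences of 1.33 for Mrc1 (adjusted p = 0.09548), 0.42 for Msr1 (0.6023) and 1.58 for Stab1 (0.06451). Likewise with ctrl alone, Mrc1 did not pass among Ly6Clo cells (log2 0.87, adjusted p = 0.06282), and Msr1 did not pass for Ly6Clo MHCIIlo over Ly6Chi MHCIIhi (log2 1.19, adjusted p = 0.1243). Without the sample Ly6Chi MHCIIhi ctrl 1, Mrc1 differed from Ly6Chi MHCIIlo by 1.72 in log2 (adjusted p = 0.0003649) and from Ly6Clo MHCIIhi by 1.09 (0.0005041), and Stab1 from Ly6Clo MHCIIhi by 1.57 (4.755e-05) and from Ly6Clo MHCIIlo by 1.84 (2.053e-07). Between Ly6Clo MHCIIhi and Ly6Chi MHCIIlo, 2 of 3 were higher, and between Ly6Clo MHCIIlo and Ly6Chi MHCIIhi also 2 of 3. In the first of these 21.3% of 5702 genes were called higher and 21% lower, and in the second 11.6% were called higher.

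**Figure D2:**
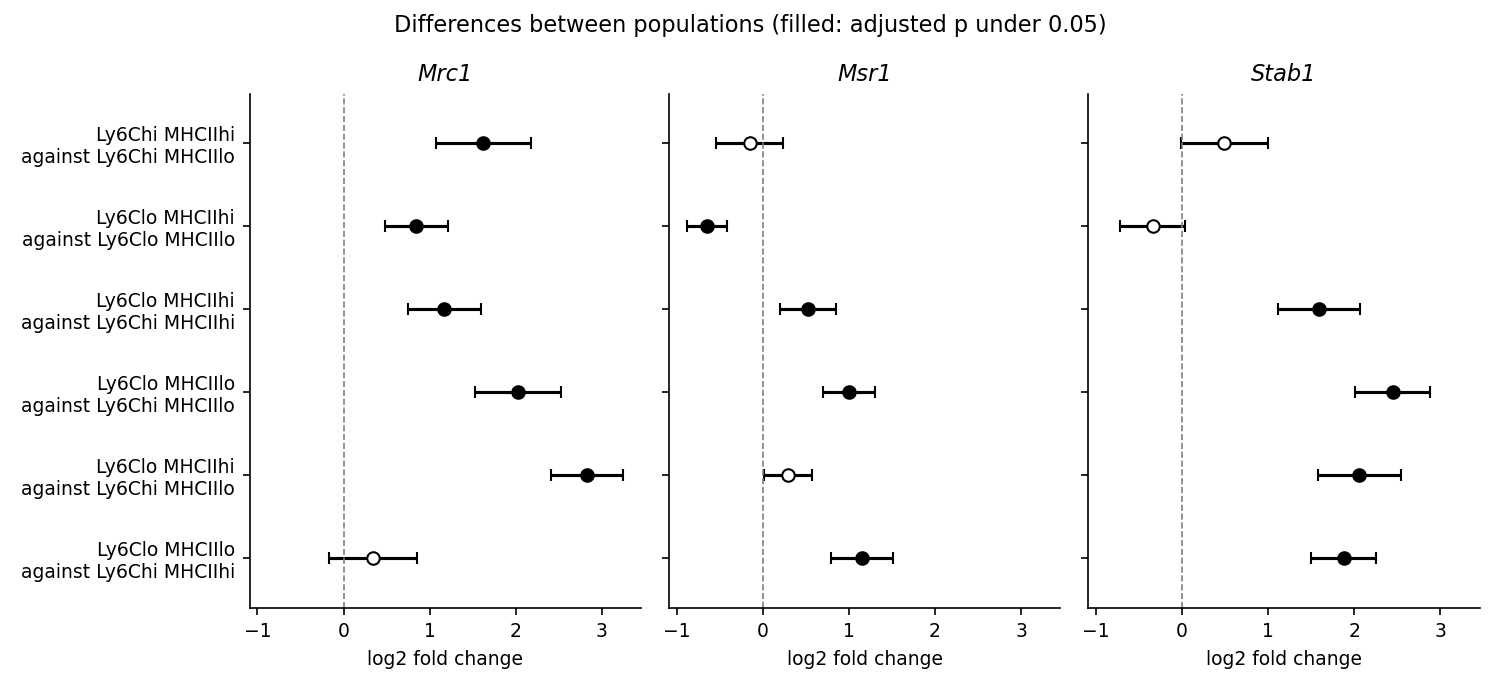
Log2 fold changes (x axis) of Mrc1, Msr1 and Stab1 in the 6 pairs of populations (rows), with 95% intervals from their standard errors. Filled points passed an adjusted p under 0.05 in edgeR's quasi-likelihood test. Mrc1 lies right of 0 and Msr1 left of 0 for Ly6Clo MHCIIhi against Ly6Clo MHCIIlo (0.84 and -0.65).

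Folr2, folate receptor beta, was rare: 70 of 13118363 counts over all samples used. It was under the count filter, so it was compared by two-sided exact permutation tests of mean log2(CPM + 1), adjusted over the 6 pairs of populations. In Ly6Clo MHCIIlo 7 of 8 samples had at least 1 count, and the level was 6.85 ± 6.08 CPM. In Ly6Clo MHCIIhi 12 of 16 samples had a count, and the level was 5.80 ± 4.76 CPM. In Ly6Chi MHCIIhi it was 4 of 7 samples, at 2.26 ± 2.13 CPM, and in Ly6Chi MHCIIlo 1 of 8, at 0.367 ± 1.04 CPM. Both Ly6Clo populations exceeded Ly6Chi MHCIIlo, by 2.33 on the log2(CPM + 1) scale for MHCIIlo (exact p = 0.0014, adjusted 0.00639, n = 8 and 8) and by 2.01 for MHCIIhi (exact p = 0.00213, adjusted 0.00639, n = 16 and 8). Ly6Chi MHCIIhi exceeded Ly6Chi MHCIIlo by 1.07 (exact p = 0.0443, n = 7 and 8), which did not pass after adjustment (0.0834), and leaving out 1 sample at a time gave unadjusted exact p from 0.04296 to 0.1249. The other 3 pairs did not pass either (adjusted exact permutation p = 0.0834, 0.178 and 0.596). For 1 of these, Ly6Clo MHCIIlo over Ly6Chi MHCIIhi (difference 1.26), the unadjusted exact p of 0.0556 became 0.002331 (difference 1.63) without Ly6Clo MHCIIlo ko 1 and 0.04895 without Ly6Chi MHCIIhi ctrl 4. As for Stab1, the highest mean levels were in the 2 Ly6Clo populations, whose difference was -0.32 on the log2(CPM + 1) scale. That difference ran from -0.69 without Ly6Clo MHCIIlo ko 1 to -0.061 without Ly6Clo MHCIIlo ko 4, and was -0.0010 without the samples under 100000 counts. Summed over samples, the raw counts gave 6.76 CPM in Ly6Clo MHCIIhi (exact binomial 95% interval 5.06 to 8.84) and 0.420 in Ly6Chi MHCIIlo (0.0106 to 2.34), where intervals cover counting error only.

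Cd163, the haemoglobin scavenger receptor, had 3 counts among 13118363. Of these, 1 fell in Ly6Chi MHCIIlo (ctrl 1) and 2 in Ly6Clo MHCIIhi (ctrl 6 and ko 8). No count was seen in Ly6Chi MHCIIhi or Ly6Clo MHCIIlo, which allows up to 2.24 and 1.93 CPM of the raw total (3 counts). With so few counts Cd163 was not tested.

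The members with enough counts therefore did not share 1 order across the gates. The log2 difference of Mrc1 and Msr1 within a sample averaged -0.83 ± 0.53 (SD, n = 16) in Ly6Clo MHCIIhi, -1.43 ± 0.37 (n = 7) in Ly6Chi MHCIIhi, -2.27 ± 0.63 (n = 8) in Ly6Clo MHCIIlo and -3.24 ± 0.55 (n = 8) in Ly6Chi MHCIIlo. So the share of Mrc1 in the pair was higher in both MHCIIhi populations than in either MHCIIlo population on average. For Stab1 and Msr1 the same difference averaged 0.13 ± 0.52 and -0.15 ± 0.40 in Ly6Clo MHCIIhi and MHCIIlo, against -0.79 ± 0.71 and -1.66 ± 0.66 in Ly6Chi MHCIIhi and MHCIIlo. That pair was ordered by Ly6C. These differences are descriptions and were not tested.

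Over the 39 samples Pearson's r in log2(CPM + 1) was 0.74 for Mrc1 and Stab1, 0.61 for Msr1 and Stab1 and 0.46 for Mrc1 and Msr1. After the mean of each population and genotype was taken away, r was 0.40, 0.41 and 0.64 in the same order. Ly6Chi MHCIIhi ctrl 1, the lowest of its group in Mrc1 and Msr1, enters these values, and r without it was not computed. The samples of a group share its gate, and deep and shallow samples enter alike, so these values are given as descriptions only. With Folr2, r within groups ran from 0.10 (Stab1) to 0.46 (Msr1).

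The sums of marker genes also differed between the gates. All 10 of 10 macrophage markers (among them Adgre1, Mertk and C1qa) were detected in every population, and their summed level had a median of 15855 CPM (9644 to 20158) in Ly6Clo MHCIIhi, 12870 (7675 to 14773) in Ly6Clo MHCIIlo, 6404 (2108 to 7471) among Ly6Chi MHCIIhi samples and 3636.5 (2943 to 4288) among Ly6Chi MHCIIlo samples. The 10 monocyte markers had median sums of 9225 CPM (6738 to 11468) in Ly6Chi MHCIIlo, 4695 (1989 to 8075) in Ly6Chi MHCIIhi, 1096 (716 to 2226) in Ly6Clo MHCIIhi and 1024 (673 to 1351) in Ly6Clo MHCIIlo. Over the 39 samples r with the macrophage sum was 0.87 for Mrc1, 0.90 for Stab1 and 0.58 for Msr1, and within groups 0.62, 0.68 and 0.70. These values include Ly6Chi MHCIIhi ctrl 1, and r without it was not computed. The macrophage markers did not all follow their sum. For Ly6Chi MHCIIhi over Ly6Chi MHCIIlo 3 of 9 tested were called higher (1.32% of all genes). For Ly6Clo MHCIIhi over Ly6Clo MHCIIlo it was 4 of 10 (11.9%), and 0 were lower in either. For Ly6Clo over Ly6Chi it was 5 of 10 at high MHC class II (8.3%) and 7 of 10 at low (19.3%). Across the diagonals it was 8 of 10 for Ly6Clo MHCIIhi over Ly6Chi MHCIIlo (21.3%) and 5 of 10 for Ly6Clo MHCIIlo over Ly6Chi MHCIIhi (11.6%). In these comparisons 0 were lower. Adgre1 ran from 13.3 to 78.3 CPM in Ly6Chi MHCIIhi and from 30.3 to 84.9 in Ly6Chi MHCIIlo. The part of macrophage content in the members' differences was not tested.

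Of 12 dendritic cell markers, 12 were detected in Ly6Clo MHCIIhi, where Mrc1 was highest, with a median sum of 484 CPM (230 to 787). The sums were 129 (100 to 221) in Ly6Chi MHCIIhi, with Itgae and Siglech at 0, 84.7 (47.9 to 154) in Ly6Clo MHCIIlo, with Xcr1 at 0, and 70.0 (37.5 to 100) in Ly6Chi MHCIIlo, with Xcr1, Clec9a, Itgae and Siglech at 0. Neutrophil markers stood higher in the MHCIIlo gates: the medians were 12214 CPM (5542 to 28195) in Ly6Clo MHCIIlo with 12 of 13 detected, and 10904 (6098 to 20456) in Ly6Chi MHCIIlo with 13. In Ly6Clo MHCIIhi and Ly6Chi MHCIIhi they were 762 (417 to 1991, 12 detected) and 919 (559 to 63075, 13 detected), the highest value being Ly6Chi MHCIIhi ctrl 1. Mpo was at 0 in both Ly6Clo populations. Within groups r with the neutrophil sum was -0.50 for Mrc1, -0.62 for Msr1 and -0.06 for Stab1. Ly6Chi MHCIIhi ctrl 1, at 63075 CPM against 773 in ctrl 3 and 627 in ctrl 4 of its group, enters these values. It was also the lowest of its group in Mrc1 and Msr1, and r without it was not computed.

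Endothelial cells, another source of Stab1 and Mrc1 transcripts, had markers at low levels. Of 12 markers listed 10 had a row, and their summed level had medians of 48.1 CPM (26.7 to 121) in Ly6Clo MHCIIhi, 44.4 (24.3 to 90.5) in Ly6Clo MHCIIlo, 34.8 (0 to 92.8) in Ly6Chi MHCIIhi and 18.4 (7.86 to 49.1) in Ly6Chi MHCIIlo. Stab2, the sister gene of Stab1 in sinusoidal endothelium, was at 0 in both MHCIIlo populations and had 2 counts in Ly6Chi MHCIIhi and 7 in Ly6Clo MHCIIhi. Cldn5 was at 0 in all but Ly6Clo MHCIIhi, and Emcn in all but Ly6Chi MHCIIhi. Of the 10 markers, 9 were detected in Ly6Clo MHCIIhi, 8 in Ly6Chi MHCIIhi, 7 in Ly6Clo MHCIIlo and 6 in Ly6Chi MHCIIlo. The 1 marker tested for Ly6Clo MHCIIhi over Ly6Chi MHCIIlo was called higher (log2 1.46), as 21.3% of all genes were. For Ly6Clo MHCIIhi over Ly6Chi MHCIIhi 1 was tested and not called (log2 0.41), and no other pair had one tested. Markers of B and plasma cells, 8 listed, had median sums of 2254 CPM (80.2 to 14808) in Ly6Chi MHCIIhi and 1805 (56.8 to 28055) in Ly6Clo MHCIIhi, each with 8 detected. In Ly6Chi MHCIIlo and Ly6Clo MHCIIlo the medians were 414 (70.6 to 6586) and 91.7 (58.6 to 4467), each with 5 detected. The parts of dendritic, neutrophil, endothelial and B cell content in these differences were not tested.

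Other scavenger receptors moved in both directions. Of 20 listed, 16 had a row and 6 were tested between Ly6Clo MHCIIhi and Ly6Chi MHCIIlo, of which 2 were higher and 3 lower (median log2 -0.38, against 0.01 over all genes). That comparison called 21.3% of all 5702 genes higher and 21% lower. Lrp1, a large endocytic receptor for lipoproteins and protease complexes, stood at 296 ± 53.3 CPM (n = 16) against 576 ± 143 (n = 8) (log2 -0.97, SE 0.12, adjusted p = 9.522e-08). Olr1, a receptor for oxidised lipoprotein, stood at 42.7 ± 38.2 CPM against 157 ± 43.5 (log2 -2.02, SE 0.28, adjusted p = 8.525e-07). Scarb1, the receptor for high-density lipoprotein, stood at 32.7 ± 12.1 CPM against 75.2 ± 21.3 (log2 -1.10, SE 0.17, adjusted p = 3.412e-06). The 2 that were higher were Cd36 (log2 1.29) and Scarb2 (log2 0.74), a lysosomal membrane protein. Cd36 passed the count filter there only through Ly6Clo MHCIIhi, where it was higher.

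Cd36, a class B scavenger receptor for fatty acids and oxidised lipoprotein, had its highest level where Msr1 did. It stood at 69.1 ± 16.4 CPM (n = 8) in Ly6Clo MHCIIlo, 18.3 ± 10.5 (n = 16) in Ly6Clo MHCIIhi, 24.9 ± 42.4 (n = 7, median 7.72) in Ly6Chi MHCIIhi and 6.35 ± 1.75 (n = 8) in Ly6Chi MHCIIlo. Ly6Clo MHCIIlo exceeded Ly6Chi MHCIIlo by 3.52 in log2 (SE 0.28, adjusted p = 4.583e-10), and Ly6Clo MHCIIhi was lower than Ly6Clo MHCIIlo (log2 -2.24, SE 0.24, adjusted p = 3.871e-08). In both comparisons Cd36 passed the count filter only through Ly6Clo MHCIIlo, where it was higher. Between Ly6Clo MHCIIhi and Ly6Clo MHCIIlo, 0 of 5 tested receptors of the list were higher and 2 lower, Cd36 and Lrp1 (median log2 -0.76, against -0.01 over all genes). There 11.9% of all genes were called higher and 13.6% lower. The 5 were tested with edgeR's quasi-likelihood test. Marco, a class A relative of Msr1, had 25 counts in all samples and was not tested.

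C-type lectins, the wider family of Mrc1 and Clec10a, split as well. Of 28 listed, 24 had a row and 11 were tested between Ly6Clo MHCIIhi and Ly6Chi MHCIIlo, with 3 higher and 4 lower (median log2 -0.22). The shares over all genes there were 21.3% higher and 21% lower. Clec4n, which encodes the mannan receptor Dectin-2, rose from 286 ± 60.1 CPM (n = 8) to 1048 ± 205 (n = 16) (log2 1.86, SE 0.13, adjusted p = 9.156e-13). It also was the 1 lectin of 10 tested that was higher in Ly6Chi MHCIIhi than in Ly6Chi MHCIIlo (log2 1.45), as Mrc1 was among the members. Another 1 of the 10 was lower there, and their median log2 was -0.24. Over all genes 1.32% were called higher and 1.53% lower. Cd209a, a lectin of dendritic cells and 1 of their markers above, stood at 67.6 ± 35.3 CPM against 5.95 ± 8.39 (log2 3.54, SE 0.47, adjusted p = 3.498e-07). Clec4e, the Mincle receptor for mycobacterial glycolipid, fell from 1063 ± 162 CPM to 292 ± 150 (log2 -1.87, SE 0.21, adjusted p = 1.121e-08). Clec12a, an inhibitory lectin, fell from 61.7 ± 18.4 to 14.3 ± 10.4 CPM (log2 -2.17, SE 0.29, adjusted p = 3.494e-07). Cd209a was under the count filter within Ly6Chi MHCIIlo, and Clec12a within Ly6Clo MHCIIhi. Each entered only through the population where it was higher.

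**Figure D3:**
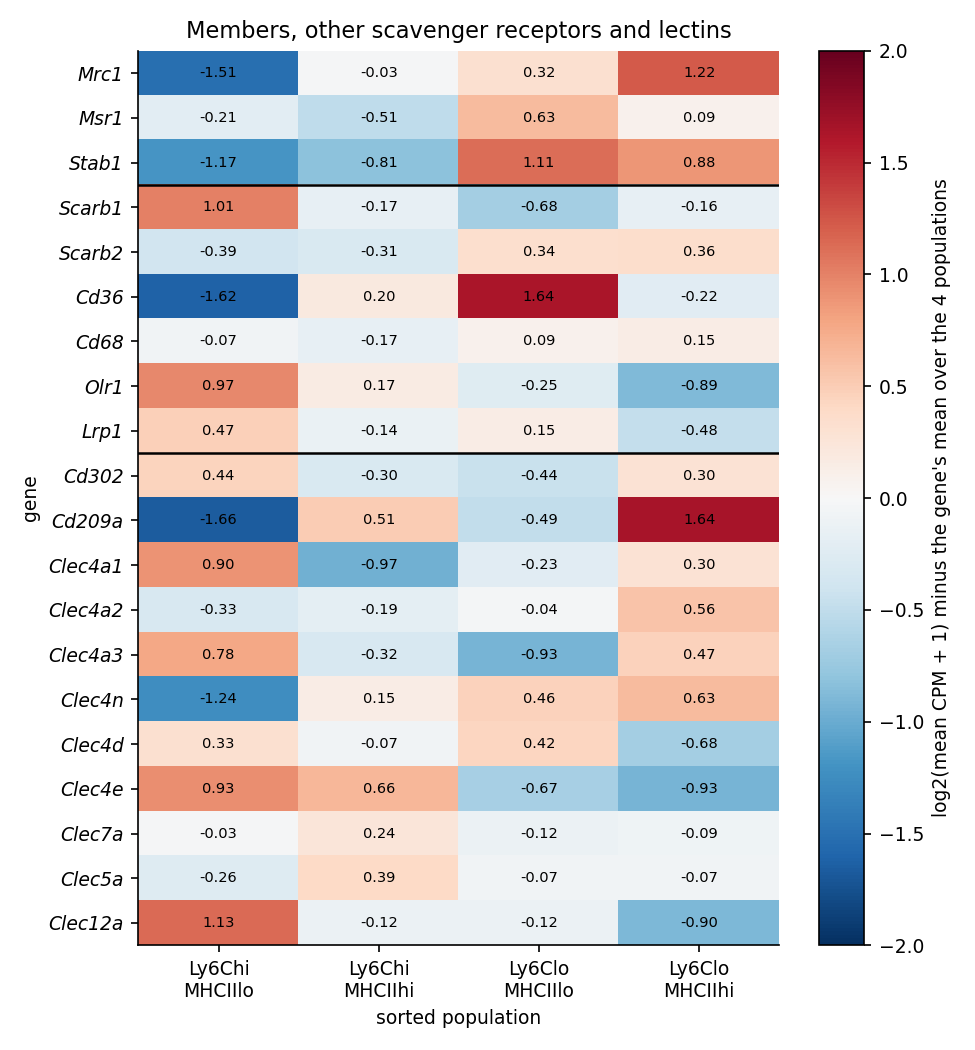
Log2(mean CPM + 1) of each gene (rows) in each sorted population (columns), minus the gene's mean over the 4 populations. Members, other scavenger receptors and C-type lectins are parted by lines, and only genes tested in at least 1 pair of populations are drawn. Cd36 has its highest value (1.64) in Ly6Clo MHCIIlo, as Msr1 has (0.63), and Clec4n its highest (0.63) in Ly6Clo MHCIIhi, as Mrc1 has (1.22).

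Ligands and partners of the receptors gave 5 higher and 2 lower among 11 tested of 16 between Ly6Clo MHCIIhi and Ly6Chi MHCIIlo (median log2 0.62). Over all genes 21.3% were higher and 21% lower there. Apoe, a lipoprotein component, stood at 25539 ± 5977 CPM (n = 16) against 3318 ± 916 (n = 8) (log2 2.93, SE 0.16, adjusted p = 4.266e-15). Hp, which encodes haptoglobin, the partner of the Cd163 protein, and is also 1 of the monocyte markers, moved the other way, from 1395 ± 330 to 198 ± 81.3 CPM (log2 -2.90, SE 0.20, adjusted p = 7.433e-13). Blvrb, an enzyme of haem breakdown, stood at 416 ± 80.9 CPM against 137 ± 48.1 (log2 1.61, SE 0.16, adjusted p = 1.147e-09). Csf1, the macrophage growth factor, stood at 176 ± 64.1 CPM in Ly6Clo MHCIIlo against 19.0 ± 13.6 in Ly6Chi MHCIIlo (n = 8 each, log2 3.39, SE 0.35, adjusted p = 2.972e-08). It passed the count filter only through Ly6Clo MHCIIlo, where it was higher. Of 16 genes of folate transport and use, 3 were tested and 1 passed: Tyms, thymidylate synthase, stood at 22.1 ± 14.3 against 9.68 ± 6.86 CPM (log2 1.33, SE 0.42, adjusted p = 0.01112). That was for Ly6Clo MHCIIhi over Ly6Chi MHCIIlo, and Tyms passed the count filter only through Ly6Clo MHCIIhi.

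Genes used with Mrc1 and Folr2 to mark alternatively activated or perivascular macrophages were divided. Of 30 listed, 20 were tested in the same comparison, with 9 higher and 6 lower (median log2 0.09). Over all genes 21.3% were called higher and 21% lower. Ccl8, a chemokine of resident macrophages, rose from 29.2 ± 18.4 CPM (n = 8) to 699 ± 330 (n = 16) (log2 4.53, SE 0.33, adjusted p = 1.795e-12). Chil3, a chitinase-like protein that is also on the monocyte list, fell from 710 ± 609 to 23.0 ± 22.6 CPM (log2 -5.14, SE 0.32, adjusted p = 7.021e-14). F13a1, a coagulation factor subunit, fell from 254 ± 68.2 to 10.5 ± 8.05 CPM (log2 -4.68, SE 0.19, adjusted p = 5.732e-18), and Tgm2, a transglutaminase, from 3338 ± 1534 to 764 ± 217 (log2 -2.07, SE 0.15, adjusted p = 2.261e-12). So the rise of Mrc1 was not accompanied by a rise of all genes on that list. F13a1 passed the count filter only through Ly6Chi MHCIIlo, where it was higher.

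Of 21 transcription factors and signalling genes over such receptors, 20 were tested, with 8 higher and 3 lower (median log2 0.27). The comparison was again Ly6Clo MHCIIhi against Ly6Chi MHCIIlo, with 21.3% of all genes higher and 21% lower. Maf, a macrophage transcription factor, stood at 252 ± 64.5 CPM against 94.6 ± 43.1 (log2 1.42, SE 0.18, adjusted p = 1.967e-07). Cebpa stood at 148 ± 44.5 CPM against 57.2 ± 21.1 (log2 1.39, SE 0.19, adjusted p = 4.724e-07), and its relative Cebpb at 1109 ± 189 against 2254 ± 378 (log2 -1.03, SE 0.10, adjusted p = 4.526e-10). Tgfbr1, a receptor chain for TGF-beta, stood at 112.6 ± 37.0 CPM against 41.9 ± 10.7 (log2 1.46, SE 0.20, adjusted p = 3.878e-07).

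For each member the 3 genes with the closest pattern were sought among 5350 genes by Pearson's r in log2(CPM + 1) over the 39 samples. For Mrc1 they were Lgmn, which encodes the lysosomal protease legumain (r = 0.88), Clec4n (0.87) and Itgax, which encodes CD11c (0.86). Itgax stood at 323 ± 86.7 CPM in Ly6Clo MHCIIhi, 287 ± 37.4 in Ly6Clo MHCIIlo, 187 ± 72.1 in Ly6Chi MHCIIhi and 112.7 ± 32.8 in Ly6Chi MHCIIlo. For Msr1 they were Mpeg1, a pore-forming protein of phagocytes (0.87), Psmd1, a proteasome subunit (0.85), and Ctsa, a lysosomal carboxypeptidase (0.83). Mpeg1 had the same highest population as Msr1, with 772 ± 75.2 CPM in Ly6Clo MHCIIlo and 645 ± 153 in Ly6Clo MHCIIhi. For Stab1 they were Cd63, a tetraspanin of late endosomes (0.93), Apoe (0.93) and Grn, which encodes progranulin (0.92). Cd63 stood at 1525 ± 297 and 1501 ± 448 CPM in the Ly6Clo populations and at 383 ± 133 and 221 ± 67.8 in the Ly6Chi populations, MHCIIlo before MHCIIhi in the first pair and after it in the second. All these r values include Ly6Chi MHCIIhi ctrl 1, the lowest of all samples in Msr1 (39.8 CPM), and r without it was not computed. The samples of a group also share its gate, so the values are descriptions only.

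The design also asks whether loss of Ccl17 went with a change in these receptors within a population. No member passed in any of the 4 comparisons of ko with ctrl, with edgeR's quasi-likelihood test or with DESeq2. Over all genes, 0%, 0.0756%, 0% and 0.0314% were called in Ly6Chi MHCIIhi, Ly6Chi MHCIIlo, Ly6Clo MHCIIhi and Ly6Clo MHCIIlo. At an unadjusted p under 0.05 these comparisons held 245, 444, 296 and 136 genes, and 1 of them was a member, Msr1 in Ly6Clo MHCIIhi.

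Msr1 in Ly6Clo MHCIIhi ran from 200 to 452 CPM with a median of 319 in ko and from 120 to 304 with a median of 259 in ctrl (means 320 ± 75.2 and 234 ± 63.8, n = 8 each). Of the 8 ko samples 6 lay above the highest ctrl sample, and ko 4 (254 CPM) and ko 6 (200 CPM) lay inside the ctrl range. The log2 difference was 0.43 (SE 0.15, unadjusted p = 0.007192, adjusted p = 0.8877), which did not pass. In Ly6Clo MHCIIlo, Msr1 was 426, 401, 379 and 572 CPM in ko 1 to 4 and 421, 327, 277 and 427 in ctrl 1 to 4 (log2 0.30, 95% interval -0.06 to 0.66). In Ly6Chi MHCIIhi it was 227, 218, 201 and 212 CPM in ko 1 to 4 and 39.8, 132 and 244 in ctrl 1, 3 and 4 (log2 0.24, 95% interval -0.40 to 0.89). The 4 ko samples there lay close together and inside the ctrl range. Without ctrl 1 the differences in that population were -0.06 in log2 for Msr1 and -0.0093 for Mrc1, the reverse in sign. In Ly6Chi MHCIIlo it was 244, 199, 214 and 223 CPM in ko and 224, 164, 334 and 189 in ctrl (log2 -0.09, 95% interval -0.52 to 0.34).

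Mrc1 in Ly6Clo MHCIIhi was 162 ± 61.6 CPM in ko (39.9 to 231, median 178) and 162 ± 49.2 in ctrl (60.0 to 216, median 165), n = 8 each, and the log2 difference was 0.02 (95% interval -0.33 to 0.38). In Ly6Clo MHCIIlo it was 90.5, 94.3, 79.0 and 89.2 CPM in ko 1 to 4 and 136, 74.0, 89.7 and 34.8 in ctrl 1 to 4 (log2 0.07, 95% interval -0.55 to 0.69). The ctrl samples there spread widely around the ko samples. In Ly6Chi MHCIIhi it was 52.9, 99.7, 69.5 and 92.2 CPM in ko and 13.3, 66.2 and 78.3 in ctrl 1, 3 and 4 (log2 0.24, 95% interval -0.63 to 1.11). In Ly6Chi MHCIIlo, where Mrc1 was under the count filter, it was 35.8, 26.0, 31.6 and 11.8 CPM in ko and 20.4, 18.2, 20.5 and 23.6 in ctrl (two-sided exact permutation p = 0.543).

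Stab1 in Ly6Clo MHCIIhi ran from 159 to 583 CPM in ko (median 357) and from 107 to 515 in ctrl (median 293), with a log2 difference of 0.18 (95% interval -0.27 to 0.62). In Ly6Clo MHCIIlo it was 426, 302, 290 and 385 CPM in ko 1 to 4 and 557, 216, 355 and 417 in ctrl 1 to 4 (log2 -0.14, 95% interval -0.57 to 0.29). All 4 ko samples lay inside the ctrl range. In Ly6Chi MHCIIhi it was 132, 114, 69.5 and 120 CPM in ko and 66.3, 66.2 and 104 in ctrl 1, 3 and 4 (log2 0.14, 95% interval -0.50 to 0.78). In Ly6Chi MHCIIlo it was 111, 77.9, 77.1 and 55.9 CPM in ko and 139, 50.1, 47.7 and 39.3 in ctrl (log2 0.16, 95% interval -0.57 to 0.89).

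Folr2 gave exact permutation p-values of 0.486, 1, 0.19 and 0.771 for ko against ctrl in Ly6Chi MHCIIhi, Ly6Chi MHCIIlo, Ly6Clo MHCIIhi and Ly6Clo MHCIIlo. In Ly6Chi MHCIIlo only 1 of 8 samples held a count. Every split there gives a difference of the same size, so that p was fixed in advance and decides nothing. In Ly6Clo MHCIIlo, with 4 samples against 4, and in Ly6Chi MHCIIhi, with 4 against 3, the smallest p such a test allows is 0.0286. It counts every split of the samples with a difference at least as large in size. In Ly6Clo MHCIIhi Folr2 had counts in 7 of 8 ko and 5 of 8 ctrl samples (7.45 ± 5.08 and 4.15 ± 4.07 CPM). The interaction of population and genotype called no member with edgeR's quasi-likelihood test (adjusted p = 0.9893 for Mrc1, 0.949 for Msr1 and 0.9801 for Stab1). Over all genes 0.0663% of 6032 were called for it, and 402 had an unadjusted p under 0.05, none of them a member.

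Library barcodes went with the genotype label. In Ly6Chi MHCIIhi, Ly6Chi MHCIIlo and Ly6Clo MHCIIlo every ctrl library had a barcode of 6 bases with at least 4 A or T and every ko library had fewer, so the kind of barcode and the genotype label cannot be told apart. Both kinds occurred with both labels in Ly6Clo MHCIIhi, and in a fit of the 24 libraries as separate samples with the barcode class, which counts 8 of 16 replicates 2 times, Msr1 had a log2 difference of 0.42 (SE 0.14, adjusted p = 0.4654). In 5 replicates of that population that had a library of each kind, the library with fewer A and T exceeded the other by 0.06 ± 0.11 in log2 for Mrc1, 0.00 ± 0.35 for Msr1 and 0.24 ± 0.37 for Stab1 (SD, n = 5).

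**Figure D4:**
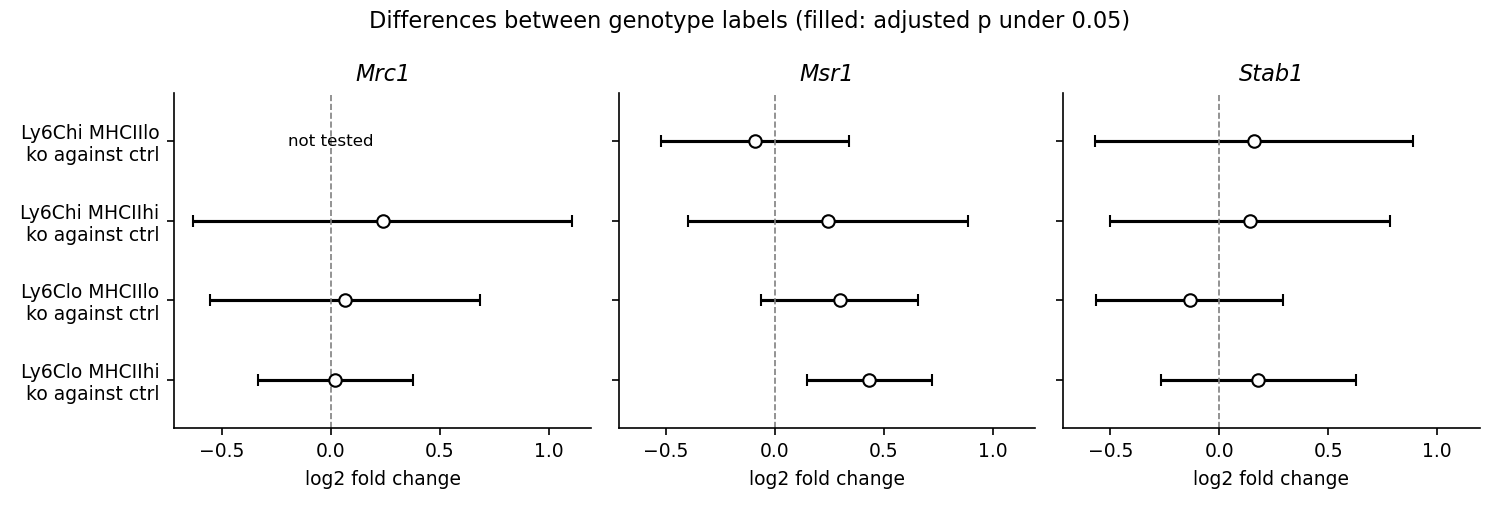
Log2 fold changes of ko against ctrl (x axis) for Mrc1, Msr1 and Stab1 in the 4 sorted populations (rows), with 95% intervals from their standard errors. Open points did not pass an adjusted p under 0.05 in edgeR's quasi-likelihood test, and Mrc1 was not tested by it in Ly6Chi MHCIIlo. The interval of Msr1 in Ly6Clo MHCIIhi runs from 0.15 to 0.72 and all others include 0.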

How the data were processed

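Sorted intratumoral cells were sequenced in bulk from the 3′ ends of their poly(A) RNA, per the labels' protocols. The authors deposited raw counts, whole numbers for each gene symbol in each library. The submitters' processing notes name GRCm38 as build and list DESeq2 1.18.1 and R 3.4.4. Which aligner, counter and annotation were used, and how molecular identifiers were handled, is not stated there or in the labels.

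A row named z (127 counts, 0.000967%) names no gene and was left out. Libraries under 0.1 of the median total (28006.25 counts) were left out, which removed 1 of 48, and libraries of 1 replicate were summed. CPM are counts scaled to library sizes corrected by TMM. Genes were kept by filterByExpr (minimum count 10, minimum total 15) and tested with edgeR 4.0.16 (glmQLFit and glmQLFTest, R 4.3.3), with Benjamini-Hochberg adjustment over all genes kept. Adjusted p-values of single genes are from this test except where another is given. Pairs of populations were fitted with genotype as covariate, and ko was compared with ctrl within a population. Folr2, and Mrc1 where it was under the filter, were tested by exact permutation of mean log2(CPM + 1), and Cd163 was not tested. A floor is 3 counts of the total. The fit was tested on simulated data. Alternatives were DESeq2 (1.42.0) and its size factors, no filter, all libraries kept, 1 fit of all groups, a replicate block, 1 genotype only, library 1 only, single libraries with barcode class, leaving out each replicate and, chosen after seeing the data, leaving out samples under 100000 counts.

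The members and the gene lists were chosen with earlier results of these data known. Named are the members, up to 4 genes a list with the smallest adjusted p past the threshold, the gate genes, Ccl17 and the 3 genes most like each member among genes of at least 20 CPM. Scarb2, Marco, Nt5dc2, Stab2, Timd4 and Lyve1 fall outside this rule and were named after their values were seen.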

Additional observations from a re-analysis of the deposited data

Results flagged for a closer look

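In 5 of 27 groups of members a sample lay far from the rest of its group by Dixon's test, where chance flags about 1 in 20. That rate does not hold for the 3 groups of Folr2 below, whose samples hold few or no counts. Mrc1 was 60.0 CPM in Ly6Clo MHCIIhi ctrl 3, under the other 7 samples of that group (135 to 216). It was 39.9 CPM in Ly6Clo MHCIIhi ko 6, under the other 7, which reached 231, and that sample held 2 counts of Mrc1 among 39872. Folr2 was 0 CPM in Ly6Chi MHCIIhi ko 3, where the other 3 samples held 1 count each (3.69 to 4.01 CPM), and 0 in Ly6Clo MHCIIhi ko 6, where the others ran from 4.04 to 15.9 CPM. In Ly6Chi MHCIIlo ko 4 Folr2 was 2.94 CPM, from 1 count, and the other 3 samples held none.

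The library left out for its low total, Ly6Chi MHCIIhi ctrl 2, held 5 counts of Stab1 among 8409. That is 595 CPM of its total (exact binomial 95% interval 193 to 1387, counting error only), above the 66.2 to 104 CPM of the 3 ctrl samples used in that population. It also lay above the highest Ly6Clo samples, at 583 CPM in MHCIIhi and 557 CPM in MHCIIlo, though its interval reached below both.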

How the results depend on the processing

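Across the alternatives other than leave-outs, the number of members called stayed within 1.5 times in 93 cases and moved in 4, all with ctrl samples alone. It was then 0 for Ly6Chi MHCIIhi against Ly6Chi MHCIIlo, where Mrc1 was under the count filter, 1 for Ly6Clo MHCIIhi against Ly6Clo MHCIIlo, 0 for Ly6Clo MHCIIhi against Ly6Chi MHCIIhi and 1 for Ly6Clo MHCIIlo against Ly6Chi MHCIIhi. Of the values of single genes, 480 kept direction and call. Without the samples under 100000 counts Msr1 was 0.0040 (log2) for Ly6Chi MHCIIhi over Ly6Chi MHCIIlo and -0.17 for ko over ctrl in Ly6Chi MHCIIhi, and over Ly6Chi MHCIIhi in Ly6Clo MHCIIhi its adjusted p was 0.07627. With all libraries kept, Stab1 was -0.17 for ko over ctrl in Ly6Chi MHCIIhi. Mrc1 for ko over ctrl in Ly6Clo MHCIIhi was -0.027 with the replicate block, -0.040 with each library as its own sample and -0.069 with the barcode class added. With ko samples alone Msr1 passed for Ly6Clo MHCIIhi over Ly6Chi MHCIIlo (adjusted p = 0.01167).

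Leaving out 1 sample at a time, members called ran from 2 to 3 for Ly6Clo MHCIIhi against Ly6Chi MHCIIhi and against Ly6Chi MHCIIlo and were unchanged in the other comparisons. Differences of ko and ctrl, none of them called, changed sign for Mrc1 in Ly6Chi MHCIIhi (-0.0093 to 0.73), Ly6Clo MHCIIhi (-0.065 to 0.084) and Ly6Clo MHCIIlo (-0.20 to 0.37), for Msr1 in Ly6Chi MHCIIhi (-0.065 to 1.00) and Ly6Chi MHCIIlo (-0.19 to 0.17), and for Stab1 in Ly6Chi MHCIIlo (-0.033 to 0.75) and Ly6Clo MHCIIlo (-0.30 to 0.071). The causes were not tested.

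Samples with the same replicate number did not deviate together in every pair of any comparison (at most 4 of 7 pairs over 0.1), so the numbers were not taken as pairing. With the replicate block 1, 2, 2, 3, 2 and 2 members were called in the 6 pairs of populations and 0 for genotype, and Msr1 for Ly6Clo MHCIIhi over Ly6Chi MHCIIhi (adjusted p = 0.1522) and Tyms (0.1289) no longer passed. Depth limits Folr2 and Cd163, at 70 and 3 counts in all.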

Other observations

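In Ly6Clo MHCIIhi, 8 replicates were each deposited as 2 libraries, which shows how far the receptor levels repeat between libraries. Mrc1 was 171 and 174 CPM in the 2 libraries of ctrl 6 and 203 and 201 in those of ko 7, and it was 183 and 145 in ko 5 and 208 and 169 in ko 8. Msr1 was 503 and 267 CPM in ko 5, and Stab1 was 412 and 225 CPM in ctrl 8. Timd4, a receptor for dying cells on resident macrophages, had 59 counts in the 16 Ly6Clo MHCIIhi samples (7.09 ± 6.38 CPM) and 0 in the 8 Ly6Clo MHCIIlo samples, and Lyve1, a hyaluronan receptor often named with Folr2, had 9 counts in Ly6Clo MHCIIlo, which lay in 2 of 8 samples (6 in a ko and 3 in a ctrl sample), and 1 in each other population.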
